A study of Homo sapiens with 12 samples.

Results

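The polyamine genes described here are 10 genes taken by symbol from the count table: the synthesis enzymes ODC1, AMD1, SRM and SMS, the antizymes OAZ1 and OAZ2 with the antizyme inhibitor AZIN1, and the breakdown enzymes SAT1, SMOX and PAOX. All 10 had a row among the 60670 genes of the table, and 9 of them were among the 16355 genes with enough counts to be tested; SMOX was too low. The RNA came from MDA-MB-453, a human breast cancer line that responds to androgen and lacks estrogen receptor alpha. One group of 6 libraries came from cultures given 10 nM dihydrotestosterone (DHT, a potent natural androgen) for 6 h, and the other 6 from cultures given the vehicle, 0.001% ethanol, for the same time. Both groups had been grown for 72 h in serum-containing medium, which the labels do not describe as hormone-stripped, and the 6 cultures of a group were consecutive passages of this single line, so the p-values measure the spread between cultures of one line.

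Polyamines are small, positively charged molecules that bind nucleic acids and are needed for growth. ODC1 makes putrescine from ornithine, AMD1 decarboxylates S-adenosylmethionine to give the aminopropyl donor, SRM uses that donor to turn putrescine into spermidine, and SMS adds another to make spermine. Antizymes bind ODC1 protein and send it for degradation, AZIN1 binds antizyme in its place, and SAT1, SMOX and PAOX acetylate and oxidise spermidine and spermine back down the pathway. The prostate, a classical androgen target, is rich in polyamines. Much of the control of ODC1, AMD1, SAT1 and the antizymes acts on translation or on protein turnover, which RNA counts do not report.

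ODC1 and SRM hold the letters CACGTG, an E-box that the transcription factor MYC with its partner MAX is known to bind, in the windows of 300 bases around their annotated RNA starts given by RefSeq (GRCh38.p14). In ODC1, on the minus strand of chromosome 2, a pair of E-boxes lies in the first intron of the transcripts that start farthest upstream, at chr2:10448036-10448041 and chr2:10448002-10448007. They lie 29 bases before and 5 bases after the RNA start at chr2:10448012, and the ODC1 window around the upstream RNA start at chr2:10448327 held none. In SRM, on the minus strand of chromosome 1, an E-box lies 199 bases before the RNA start, at chr1:11060212-11060217. Both stretches are shown 5′ to 3′ because they carry these letters, with the E-boxes in capitals; the ODC1 stretch is chr2:10447998-10448120 and the SRM stretch chr1:11060021-11060268.
ODC1: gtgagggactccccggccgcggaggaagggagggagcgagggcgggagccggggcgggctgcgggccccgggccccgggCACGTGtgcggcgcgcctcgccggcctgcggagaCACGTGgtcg
SRM: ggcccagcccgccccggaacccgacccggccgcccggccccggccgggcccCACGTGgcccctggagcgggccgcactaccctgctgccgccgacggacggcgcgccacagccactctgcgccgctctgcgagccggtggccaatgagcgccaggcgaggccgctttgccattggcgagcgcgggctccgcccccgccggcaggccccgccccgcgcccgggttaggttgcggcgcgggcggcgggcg
Of all 34943 windows of this length, 7.23% held CACGTG and 0.661% held it at least 2 times. The windows of AMD1, SMS, OAZ1, OAZ2 and SAT1 did not hold it, and AZIN1, SMOX and PAOX did not match the table. The AP-2 letters GCCNNNGGC, searched like the E-box on both strands and present in 23.2% of all windows, were in windows of ODC1, AMD1, SRM, OAZ1 and SAT1, and in ODC1 some of these matches overlapped each other and an E-box. These matches describe the letters only.

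Library totals ran from 4346465 to 25678781 counts, so that 1 count was worth between 0.214 and 0.0456 CPM, the count scaled to a common library size, and intervals from counts cover counting error only. Both replicate 2 libraries stood apart from the other 10 on the first principal component (51.1% of the variance), and vehicle replicate 5 stood apart from the other vehicle libraries on the second (15.7%). The androgen target FKBP5, a chaperone partner of steroid receptors, averaged 350 ± 63.9 CPM in DHT libraries and 82.4 ± 15.2 CPM in vehicle libraries (SD, n = 6 each). The line's markers were in place, with KRT8, KRT18, EPCAM, FOXA1 and ERBB2 all above 100 CPM, and ESR1, PGR, PTPRC and PECAM1 below 1 CPM. Among the first of these, the luminal factor FOXA1 fell (363 ± 39.8 CPM with DHT and 612 ± 83.6 CPM with vehicle, log2 fold change -0.75, adjusted p = 0.00463 in edgeR), and ERBB2 stood at 724 ± 166 CPM with DHT and 1260 ± 446 CPM with vehicle (-0.80, adjusted p = 0.0649). Of the markers of other cell types, the basal keratins KRT5 and KRT14 were below 1 CPM on average, while the fibroblast collagen gene COL1A1 stood at 62.0 ± 5.79 CPM in DHT libraries and 79.9 ± 13.8 CPM in vehicle libraries. The collagen gene COL3A1 stood at 1.91 ± 1.09 CPM with DHT and 4.52 ± 3.74 CPM with vehicle, and PTPRC, of leukocytes, had 0 counts in DHT libraries and 2 in vehicle libraries; the part of these markers in the results was not tested.

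The comparison asked which polyamine genes differed after 6 h of androgen. All DHT libraries had more ODC1 than any of the vehicle cultures, AMD1 and SRM were higher on average without passing the test over all genes, and SMS, the antizymes and the breakdown enzymes showed no difference that passed. In edgeR's quasi-likelihood test with Benjamini-Hochberg adjustment over all 16355 genes, 1 of the 9 tested members was raised, against 1.96% of all genes tested (2.84% in either direction). None was lowered by edgeR (0 of 9, against 0.88% of all genes), and the count was also 0 at an unadjusted p under 0.05, which 5.41% of all genes reached in this direction, and 0 in DESeq2 and in limma-voom. At an unadjusted p under 0.05, 2 of the 9 were higher, against 6.59% of all genes. The median log2 fold change was 0.48 over the 4 synthesis enzymes, -0.14 over the antizymes and AZIN1, -0.17 over SAT1 and PAOX, and -0.05 over all genes tested.

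**Figure D1:**
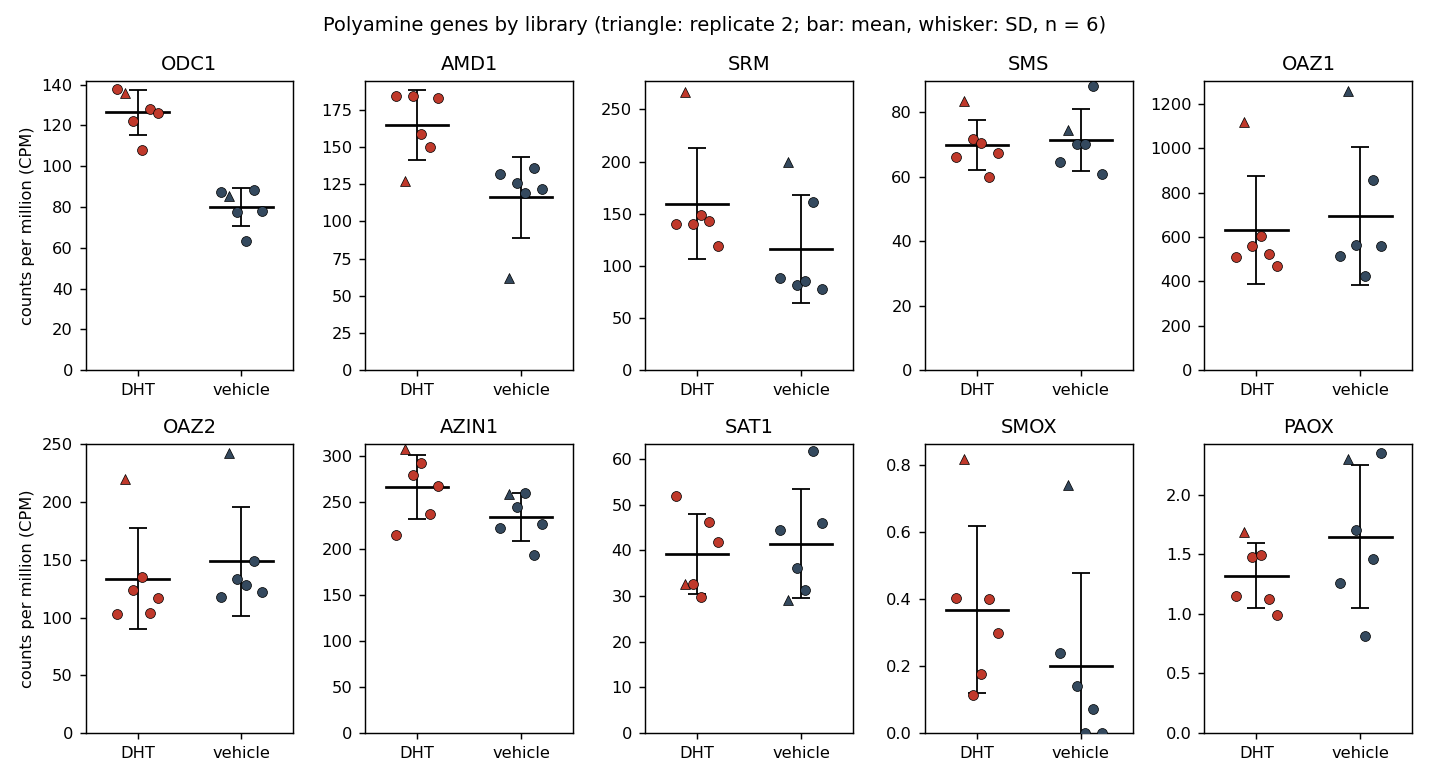
Normalised counts in CPM (vertical axis, from 0) of the 10 polyamine genes in the 6 DHT libraries (left of each panel) and the 6 vehicle libraries (right); points are libraries, triangles are replicate 2, horizontal bars are means and whiskers SD (for SMOX in vehicle, drawn down to 0). ODC1 is separated between the groups (108 to 138 CPM against 63.4 to 88.2 CPM), and the triangles sit low for AMD1 and high for SRM, OAZ1 and OAZ2 in both groups.

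ODC1, ornithine decarboxylase (ENSG00000115758, chr2:10439968-10448327 on GRCh38, minus strand), is the first and usually rate-limiting enzyme of the pathway. Its level in DHT libraries had a lowest value of 108, a median of 127 and a highest value of 138 CPM, against 63.4, 81.6 and 88.2 CPM in vehicle libraries. The lowest DHT library thus lay above the highest vehicle library, a separation in this direction seen in 2.28% of all genes tested. Means were 126 ± 10.8 CPM with DHT and 80.0 ± 9.33 CPM with vehicle (SD, n = 6 each), a 1.58-fold difference. In bulk RNA, more cells with the transcript and more of it per cell cannot be told apart. ODC1 rose by 0.66 ± 0.11 log2 units (SE; 95% interval 0.43 to 0.89; adjusted p = 0.00375 in edgeR) and stood at rank 108 of the 16355 genes by p. The call held without any 1 library, with adjusted p between 0.00317 and 0.0140, and in each of the other settings run. The authors' deposited table gives a log2 fold change of 0.64 with an adjusted p of 0.000356. The replicate 2 libraries, which stood apart for other members, were close to their groups for ODC1, at 1.08 times the median of the other DHT libraries and 1.09 times that of the other vehicle libraries.

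MYC, whose protein is a known activator of ODC1 through the paired E-boxes shown above, stood between 97.8 and 162 CPM in DHT libraries and between 24.6 and 55.2 CPM in vehicle libraries. MYC rose by 1.85 ± 0.19 log2 units (SE; adjusted p = 8.42e-05 in edgeR), and whether the change of ODC1 follows that of MYC was not tested.

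AMD1, S-adenosylmethionine decarboxylase (ENSG00000123505, chr6:110874770-110898879), ranged from 127 to 184 CPM with a median of 171 in DHT libraries, and from 61.8 to 136 CPM with a median of 124 in vehicle libraries. The replicate 2 library was the lowest of each group. DHT replicate 2, at 127 CPM, was the one DHT library within the range of the vehicle libraries, and the others were all at 150 CPM or more. The log2 fold change was 0.50 (SE 0.17, 95% interval 0.13 to 0.88), with an unadjusted p of 0.0120 and an adjusted p of 0.197 in edgeR, so AMD1 did not pass. With both replicate 2 libraries left out it passed, with a smaller log2 fold change and a smaller error (0.44, SE 0.09, adjusted p = 0.00891 in edgeR). In that fit 3.70% of all genes were called raised, against 1.96% with all libraries. AMD1 also passed with the replicate number as a block (0.53, SE 0.11, adjusted p = 0.0136 in edgeR), when 4.67% of all genes were called raised. The labels do not state that the numbers pair the cultures. The authors' deposited table gives 0.44 with an adjusted p of 0.137. AMD1 counts were not whole in 11 of 12 libraries, so its level is uncertain where the counting split reads between genes. The same limit holds for ODC1 (not whole in 6 of 12 libraries), SRM (3), SMS (12), OAZ1 (11), OAZ2 (5) and AZIN1 (9). Its pseudogene AMD1P2 on chromosome X, of whose 40-base windows 6.61% match AMD1 transcripts exactly, stood at 2.23 ± 0.489 CPM with DHT and 1.36 ± 0.329 CPM with vehicle (log2 fold change 0.71, adjusted p = 0.137).

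SRM, spermidine synthase (ENSG00000116649, chr1:11054584-11060020, minus strand), had a lowest value of 119, a median of 141 and a highest value of 267 CPM in DHT libraries, against 77.8, 87.0 and 200 CPM in vehicle libraries. In each group the replicate 2 library was the highest, at 267 and 200 CPM, and vehicle replicate 5 stood at 161 CPM. The groups overlapped when all libraries were kept. With those libraries set aside, a choice made after seeing the data, the other 5 DHT libraries lay between 119 and 149 CPM. The other 4 vehicle libraries then lay between 77.8 and 88.8 CPM. How many of all genes separate in this way was not counted. Over all libraries the log2 fold change was 0.46 (SE 0.27, 95% interval -0.11 to 1.04, adjusted p = 0.591 in edgeR) and did not pass. It was 0.25 without DHT replicate 2 alone, 0.69 without vehicle replicate 2 alone and 0.48 without both (SE 0.17, adjusted p = 0.142). Leaving out vehicle replicate 5 as well, a choice made after seeing the data, gave 0.73 (SE 0.08, 95% interval 0.56 to 0.89, adjusted p = 3.33e-05), when 6.59% of all genes were called raised. With all libraries and the replicate number as a block, SRM passed (0.52, SE 0.13, adjusted p = 0.0319 in edgeR), when 4.67% of all genes were called raised. Whether the numbers pair the cultures is not stated in the labels. The authors' deposited table gives SRM a log2 fold change of 0.63 with an adjusted p of 0.00185, and no source used here gives the model behind that table.

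SMS, spermine synthase (ENSG00000102172, chrX:21940709-21994837), ranged from 59.8 to 83.4 CPM with a median of 68.8 in DHT libraries and from 60.8 to 88.2 CPM with a median of 70.1 in vehicle libraries. The groups covered nearly the same range. The log2 fold change was -0.03 (SE 0.11, 95% interval -0.28 to 0.21, adjusted p = 0.964 in edgeR). SMS and ODC1 have the same GC content in the authors' table, 49.0%.

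**Figure D2:**
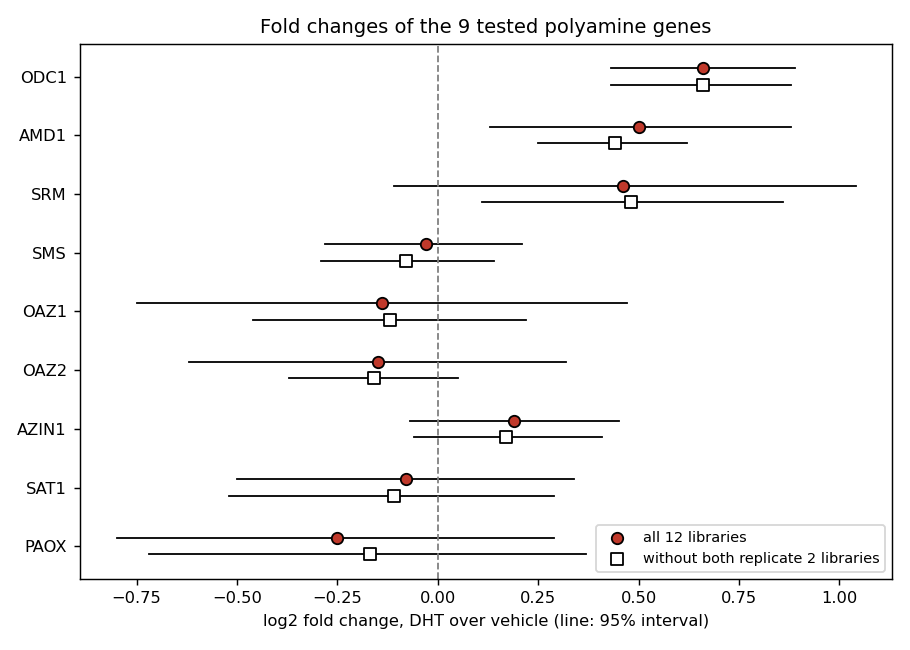
Log2 fold changes, DHT over vehicle, of the 9 tested polyamine genes with 95% intervals; filled circles use all 12 libraries and open squares leave out both replicate 2 libraries. The interval of ODC1 lies above 0 both ways (0.43 to 0.89 and 0.43 to 0.88). That of AMD1, which did not pass with all libraries, does too (0.13 to 0.88 and 0.25 to 0.62). That of SRM moves from -0.11 to 1.04 with all libraries to 0.11 to 0.86 without replicate 2. Those of SMS, OAZ1, OAZ2, AZIN1, SAT1 and PAOX cover 0.

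OAZ1, antizyme 1 (ENSG00000104904, chr19:2269509-2273490), was the most abundant of the 10 genes, with a lowest value of 472, a median of 542 and a highest value of 1120 CPM in DHT libraries, against 424, 561 and 1260 CPM in vehicle libraries. The highest value of each group was replicate 2, and the groups overlapped along most of their range. The log2 fold change was -0.14 (SE 0.28, 95% interval -0.75 to 0.47, adjusted p = 0.938 in edgeR). Leaving out vehicle replicate 2 alone turned its sign (0.12, adjusted p = 0.878), and leaving out both replicate 2 libraries narrowed the interval to -0.46 to 0.22. OAZ2, antizyme 2 (ENSG00000180304, chr15:64687573-64703281), stood between 103 and 220 CPM with a median of 120 in DHT libraries and between 118 and 243 CPM with a median of 130 in vehicle libraries. Its log2 fold change was -0.15 (SE 0.22, adjusted p = 0.903 in edgeR), or -0.16 without both replicate 2 libraries (95% interval -0.37 to 0.05).

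AZIN1, the antizyme inhibitor (ENSG00000155096, chr8:102826308-102893864), had a lowest value of 215, a median of 274 and a highest value of 308 CPM in DHT libraries, against 193, 236 and 260 CPM in vehicle libraries. The groups overlapped, and its log2 fold change of 0.19 (SE 0.12, 95% interval -0.07 to 0.45, adjusted p = 0.650 in edgeR) did not pass. The antisense gene AZIN1-AS1, which overlaps it, stood at 1.68 ± 0.369 CPM with DHT and 1.58 ± 0.534 CPM with vehicle; whether reads were counted by strand is not stated, so the pair cannot be told apart.

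A processed copy of OAZ1 did differ. OAZ1P1 (ENSG00000226745, chr1:40132764-40133448) shares no 40-base stretch with the OAZ1 transcripts of GENCODE 29. It stood between 16.6 and 28.0 CPM with a median of 20.2 in DHT libraries and between 28.0 and 46.0 CPM with a median of 39.2 in vehicle libraries. DHT replicate 5, the highest of its group, and vehicle replicate 4, the lowest of its group, were equal to 3 digits. On unrounded counts every DHT library lay below every vehicle library, by a margin too small to show in those digits. Such a separation was seen in 0.991% of all genes tested, but that share was taken on rounded counts and is not the same measure. The log2 fold change of OAZ1P1, which fell, was -0.90 ± 0.15 (SE; adjusted p = 0.00395 in edgeR), and the call held without any 1 library (adjusted p between 0.00183 and 0.0141). Counts of OAZ1P1 were not whole in 5 of 12 libraries, so its level is uncertain in the same way as that of AMD1.

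SAT1, spermidine/spermine acetyltransferase (ENSG00000130066, chrX:23783173-23786226), the first step of breakdown, stood between 29.7 and 51.9 CPM with a median of 37.2 in DHT libraries and between 29.2 and 61.7 CPM with a median of 40.3 in vehicle libraries. The range of the DHT libraries lay inside that of the vehicle libraries. The log2 fold change was -0.08 (SE 0.20, 95% interval -0.50 to 0.34, adjusted p = 0.952 in edgeR), and SAT1 counts were whole in all 12 libraries. PAOX, which oxidises the acetylated polyamines (ENSG00000148832, chr10:133379261-133391694), stood between 0.993 and 1.69 CPM in DHT libraries and between 0.811 and 2.35 CPM in vehicle libraries, from 121 and 118 counts in all. Its log2 fold change of -0.25 (SE 0.26, 95% interval -0.80 to 0.29, adjusted p = 0.840 in edgeR) did not pass, and was -0.10 without vehicle replicate 2 and -0.40 without vehicle replicate 4.

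SMOX, spermine oxidase (ENSG00000088826, chr20:4120980-4187747), was near the detection limit, with 36 counts over the DHT libraries and 17 over the vehicle libraries. Per library this was 2 to 18 counts with DHT and 0 to 10 counts with vehicle, the highest of each group being replicate 2 and vehicle replicates 4 and 6 having none, where a count of 3 would be 0.221 and 0.641 CPM. The ratio of pooled counts, scaled for library totals, was 1.83 (exact 95% counting interval 1.00 to 3.47). Between libraries the difference did not pass (exact two-sided permutation p = 0.312 over 924 labelings, which can give no p below 0.00216). The depth of these libraries does not allow more to be said of SMOX.

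The departure of the replicate 2 libraries went the same way with and without androgen and differed between members. AMD1, with a GC content of 38.1% in the authors' table, stood at 0.692 times the median of the other libraries in DHT replicate 2 and 0.490 times in vehicle replicate 2. SAT1, at 43.9% GC, stood at 0.783 and 0.657 times. SRM, at 63.6% GC, stood at 1.90 and 2.35 times, OAZ1, at 59.1% GC, at 2.15 and 2.26 times, and OAZ2, at 51.3% GC, at 1.89 times in both. AZIN1, at 41.0% GC, stood at 1.15 and 1.14 times. ODC1 and SMS, both at 49.0% GC, stood at 1.08 and 1.09 times and at 1.24 and 1.06 times. Among the 8 genes with a GC value, measured in a pair of libraries, SRM, OAZ1 and OAZ2 had the highest GC content and were highest in these libraries. The order did not hold throughout, since AZIN1 stood above SAT1 at a lower GC content. SMOX (2.75 and 10.2 times, from few counts) and PAOX (1.47 and 1.57 times) had no GC value. The part of base composition in this departure was not tested.

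**Figure D3:**
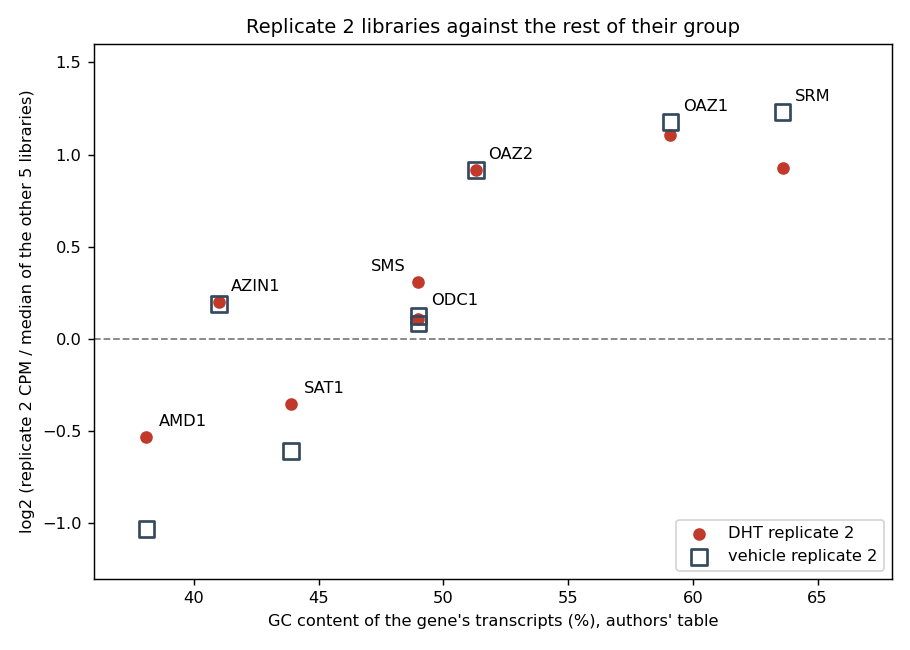
Log2 ratio of the replicate 2 library to the median of the other 5 libraries of its group (vertical axis) against the GC content given in the authors' table (horizontal axis, %) for the 8 polyamine genes with a value; filled circles are DHT and open squares vehicle. AMD1 (38.1% GC) and SAT1 (43.9%) lie below 0, and OAZ2, OAZ1 and SRM (51.3% to 63.6%) above it, in both groups.

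Ratios between a pair of members within a library do not depend on scaling between libraries, and are given as descriptions, per kilobase of summed exon length. ODC1 over OAZ1, the enzyme's RNA relative to that of its main antizyme, averaged 0.266 ± 0.0715 in DHT libraries and 0.158 ± 0.0454 in vehicle libraries (SD, n = 6 each). It was lowest in replicate 2 of both groups, at 0.149 with DHT and 0.0830 with vehicle. With all libraries kept the groups overlapped, since DHT replicate 2 lay within the vehicle range. With both replicate 2 libraries set aside, the DHT libraries lay between 0.219 and 0.332 and the vehicle libraries between 0.127 and 0.210. How often other pairs of genes separate in this way was not counted. ODC1 over SAT1, which sets the first step of synthesis against the first step of breakdown, averaged 2.98 ± 0.536 with DHT and 1.82 ± 0.452 with vehicle, overlapping only through vehicle replicate 2 at 2.61. SRM over SMS had a median of 2.26 with DHT and 1.42 with vehicle and overlapped, from 1.89 to 3.43 with DHT and from 1.25 to 2.87 with vehicle. AZIN1 over OAZ1 averaged 0.261 ± 0.0576 and 0.224 ± 0.0880 in DHT and vehicle libraries and overlapped along most of its range.

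**Figure D4:**
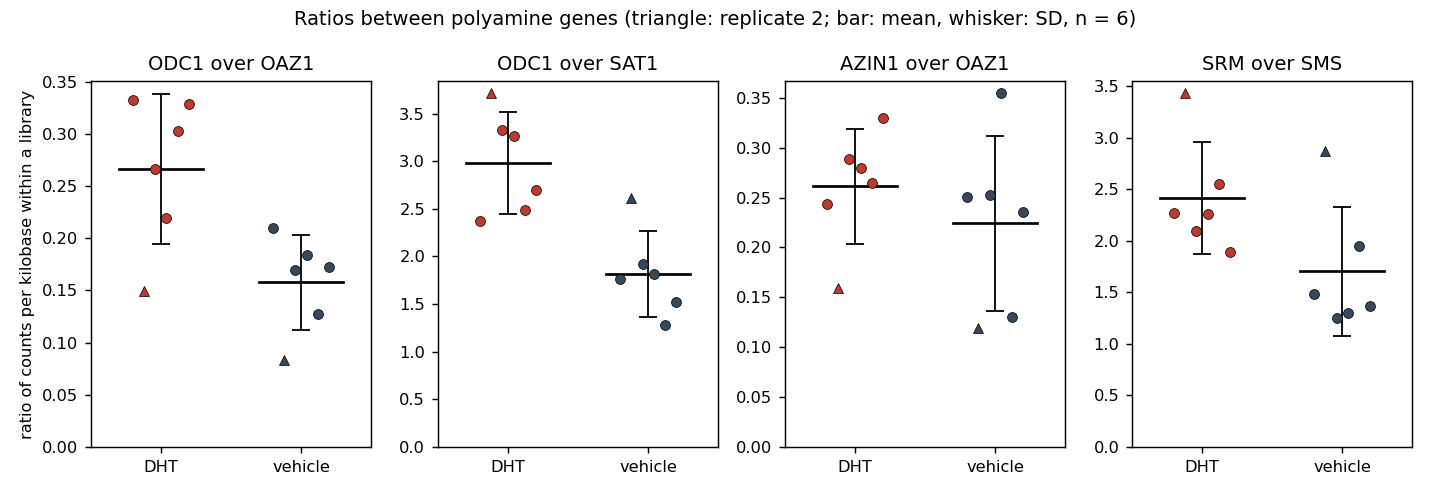
Ratios of counts per kilobase between pairs of polyamine genes within each library (vertical axis, from 0), DHT libraries left and vehicle libraries right in each panel; triangles are replicate 2, bars means and whiskers SD. ODC1 over OAZ1 averages 0.266 with DHT and 0.158 with vehicle, and ODC1 over SAT1 2.98 with DHT and 1.82 with vehicle.

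Per kilobase of summed exon length, the order of levels in DHT libraries was OAZ1 (184 CPM per kilobase), SRM (84.2), ODC1 (45.2), AZIN1 (45.1), SMS (34.4), OAZ2 (17.4), AMD1 (16.1), SAT1 (15.7), PAOX (0.586) and SMOX (0.125). In vehicle libraries it was OAZ1 (203), SRM (61.1), AZIN1 (39.5), SMS (35.2), ODC1 (28.6), OAZ2 (19.4), SAT1 (16.6), AMD1 (11.4), PAOX (0.732) and SMOX (0.0676). ODC1 thus had rank 3 with DHT and rank 5 with vehicle. With DHT, ODC1 and AZIN1 were not separated, nor were OAZ2, AMD1 and SAT1: ODC1 exceeded AZIN1 in 2 of 6 libraries and AMD1 exceeded SAT1 in 3 of 6. With vehicle, SMS exceeded ODC1 in 6 of 6 libraries, and OAZ2 exceeded SAT1 in 3 of 6. The order depends on the length used, since the summed exons of AMD1 (10193 bases) and OAZ2 (7671 bases) are much longer than their average transcripts in the authors' table (3411 and 1577 bases). With the average transcript length, AZIN1 had rank 3 with DHT and rank 2 with vehicle, and ODC1 rank 4 with DHT and rank 6 with vehicle, of the 8 genes with a value.

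Genes around the pathway were taken from 5 lists holding 40 genes, of which 26 were tested. Of these 26, 1 was raised by edgeR (against 1.96% of all genes) and 25 did not pass. None was lowered (0 of 26, against 0.88% of all genes), and the count was 0 in DESeq2 and in limma-voom. At an unadjusted p under 0.05, 6 of the 26 were higher, against 6.59% of all genes, and 2 were lower, against 5.41% of all genes. The raised gene was ENOPH1, an enzyme of the methionine salvage route that recycles the methylthioadenosine left by SRM and SMS. ENOPH1 stood between 107 and 137 CPM in DHT libraries and between 84.4 and 91.4 CPM in vehicle libraries, without overlap. Such a separation in this direction was seen in 2.28% of all genes tested. ENOPH1 rose by 0.40 ± 0.09 log2 units (SE, adjusted p = 0.0262 in edgeR). The call was lost on leaving out any of DHT replicates 1, 3, 4 or 6 or vehicle replicates 1, 3, 4 or 6, with adjusted p up to 0.0760, so that it held in 4 of 12 such fits.

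In its list, S-adenosylmethionine supply and methylthioadenosine salvage, 8 of 9 genes were tested. Among them 1 was raised by edgeR (against 1.96% of all genes) and 7 did not pass. Higher at an unadjusted p under 0.05 were 4 of the 8 (against 6.59% of all genes), and 0 were lower (against 5.41%). Over the 8 genes, log2 fold changes had a median of 0.38, against -0.05 over all genes tested. MAT2A, which makes S-adenosylmethionine, the substrate of AMD1, stood at 598 ± 178 CPM with DHT and 377 ± 131 CPM with vehicle (log2 fold change 0.67, SE 0.28, adjusted p = 0.345 in edgeR). AHCY, which clears S-adenosylhomocysteine, stood at 547 ± 249 CPM with DHT and 423 ± 262 CPM with vehicle (0.37, adjusted p = 0.814). Its log2 fold change was 0.07 without DHT replicate 2 and 0.78 without vehicle replicate 2. Without both replicate 2 libraries, 7 of the neighbours tested were raised and 1 was lowered, with 3.70% of all genes raised and 1.90% lowered in that fit. Those raised were ENOPH1, MAT2A, AHCY, the salvage enzymes MTAP and APIP, the arginine carrier SLC7A1 and the mitochondrial ornithine carrier SLC25A15, and the lowered gene was OAZ3, an antizyme known from testis.

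In the list of arginine and ornithine supply, 6 of 10 genes were tested and none passed with all libraries, with 2 higher (against 6.59% of all genes) and 0 lower (against 5.41%) at an unadjusted p under 0.05. SLC7A1 stood at 175 ± 13.9 CPM with DHT and 131 ± 46.6 CPM with vehicle (log2 fold change 0.42, adjusted p = 0.376 in edgeR). OAT, which links ornithine to glutamate and proline, stood at 143 ± 16.0 CPM with DHT and 140 ± 12.8 CPM with vehicle (0.03, 95% interval -0.19 to 0.26). The list for hypusination, the spermidine-derived modification of the translation factor eIF5A, had 4 of 5 genes tested, and none passed or reached an unadjusted p under 0.05. EIF5A stood at 229 ± 57.5 CPM with DHT and 205 ± 54.0 CPM with vehicle, and its near copy EIF5AL1, which can share its reads, at 73.7 ± 18.3 and 66.5 ± 19.7 CPM.

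Of polyamine transport genes 6 of 11 were tested, and none passed or reached an unadjusted p under 0.05. ATP13A3, a pump that takes up polyamines, stood at 249 ± 37.4 CPM with DHT and 196 ± 50.5 CPM with vehicle (log2 fold change 0.34, SE 0.18, adjusted p = 0.514 in edgeR). SLC3A2, the heavy chain of amino acid carriers also linked to polyamine export, stood at 214 ± 60.6 CPM with DHT and 210 ± 97.8 CPM with vehicle, and its log2 fold change ran from -0.11 to 0.31 with 1 library left out. Of the relatives of the members, OAZ3 stood at 8.88 ± 3.21 CPM with DHT and 13.6 ± 5.30 CPM with vehicle (-0.61, adjusted p = 0.351), and SAT2 at 11.9 ± 1.62 and 15.3 ± 3.68 CPM (-0.36, adjusted p = 0.413).

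**Figure D5:**
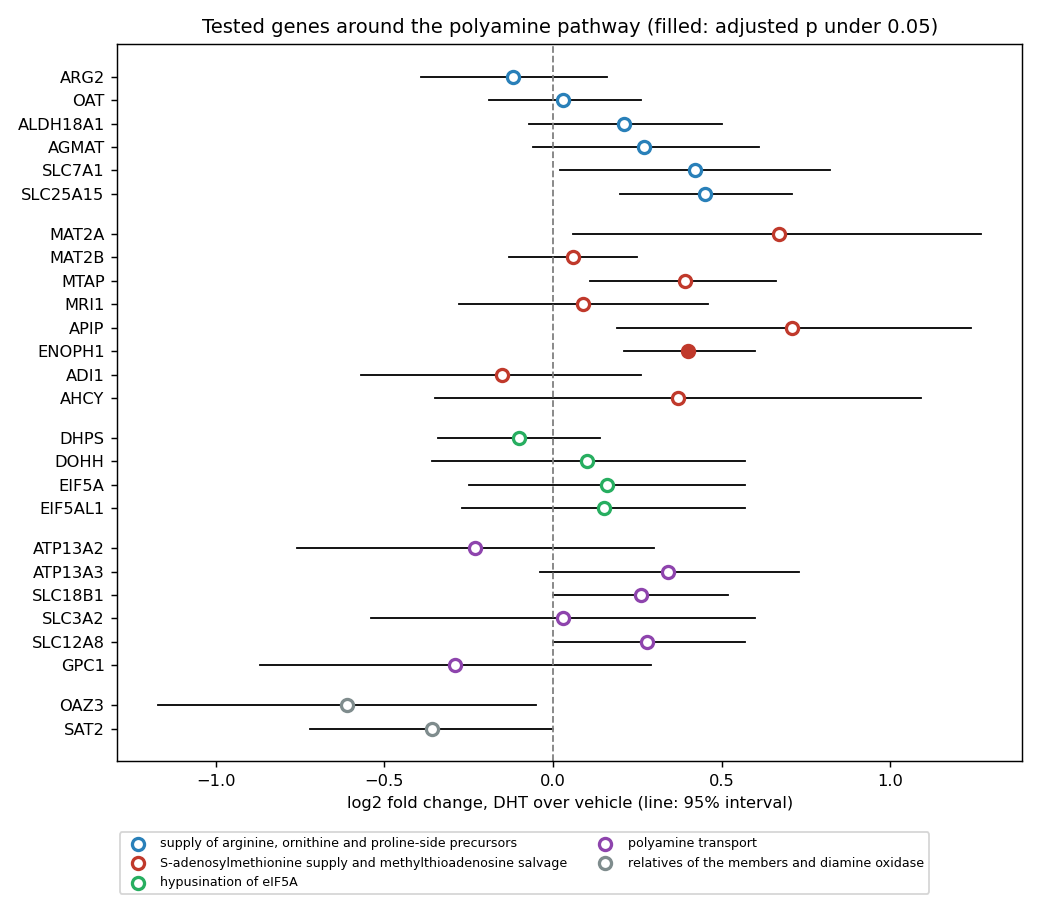
Log2 fold changes, DHT over vehicle, with 95% intervals, of the 26 tested genes around the polyamine pathway, coloured by list; a filled circle marks an adjusted p under 0.05. ENOPH1 is the filled circle (0.40), and 7 of the 8 genes in the S-adenosylmethionine and salvage list lie above 0.

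The genes whose log2 CPM over the 12 libraries lay closest to that of ODC1, by root mean square difference after centring among 9248 protein-coding genes, were DPH2 (0.102 log2 units), PNO1 (0.104) and PRPS1 (0.105). DPH2 acts in diphthamide synthesis, PNO1 in assembly of the small ribosomal subunit, and PRPS1 makes the ribose precursor of nucleotides. AMD1 lay closest to ABCE1 (0.116), OTUD6B (0.120) and GTPBP4 (0.123), and SRM to CHCHD10 (0.111), NHP2 (0.114) and CD320 (0.116). For SAT1 the closest were HTATIP2 (0.111), DISP1 (0.143) and PIR (0.151). For ODC1, AMD1, SRM and SAT1 alike, this likeness includes the replicate 2 libraries.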

How the data were processed

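The authors deposited a table of estimated counts per gene for 12 RNA-seq libraries, for which the submitters' processing notes name STAR, featureCounts and GRCh38, without versions or options. Per the labels' protocols, libraries were made from 1 µg of total RNA with a total RNA kit and read as single 40 bp reads, while the design text names poly-A RNA. Between 39.6% and 46.7% of nonzero values were not whole (tolerance 0.005), so values were rounded before testing. A record of 1 gene broken over 3 lines was left out. The authors also deposited their own comparison of 14559 genes with log2 fold changes, average log2 CPM, p-values and adjusted p-values, and GC percent and transcript lengths, per the file headers.

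After filterByExpr and TMM scaling, tests used edgeR 4.0.16 in R 4.3.3 (quasi-likelihood F-test, group as the only term, Benjamini-Hochberg adjustment, threshold 0.05). SE values were derived from the fold change and its F statistic. CPM are deposited counts over TMM-scaled totals. The test was tried on simulated data. Alternatives used DESeq2 1.42.0, limma-voom (3.58.1), other scalings and filters, a replicate block and libraries left out. The members, lists and alternatives were chosen with earlier results of these data known. Named genes were all members, the listed neighbours that passed and the 2 of highest mean CPM in each list, copies of members named by symbol, the 3 genes most alike for 4 members, MYC and FKBP5. SLC25A15, APIP and MTAP were named after their values were seen. Promoter windows are from RefSeq. One marker of the line is not reported here.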

Additional observations from a re-analysis of the deposited data

Results flagged for a closer look

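In 6 of 28 sets of 6 values (10 members and 4 ratios in each group), 1 library lay far from the other 5 by Dixon's test, and all 6 were replicate 2 libraries. Chance gives this in about 1 of 20 for a single set. The sets share the same 12 libraries and the ratios reuse the members' counts, so the number of flags cannot be set against that share. AMD1 was low in vehicle replicate 2, at 61.8 CPM with the nearest library at 119 CPM. SRM was high in DHT replicate 2, at 267 CPM with the nearest at 149 CPM. OAZ1 was high in DHT replicate 2, at 1120 CPM with the nearest at 607 CPM. OAZ2 was high in replicate 2 of both groups, at 220 CPM with DHT, where the nearest was 135 CPM, and at 243 CPM with vehicle, where the nearest was 149 CPM. SMOX was high in vehicle replicate 2, at 0.741 CPM from 10 counts, with the nearest at 0.240 CPM.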

How the results depend on the processing

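Across the alternatives, 185 log2 fold changes of members kept their direction and side of the threshold, 8 turned sign and 5 newly passed. ODC1 passed in every alternative run. The number of members raised was 1 in every fit that left out 1 library (1.15% to 2.62% of all genes raised). It was also 1 in the alternatives of scaling, filter, tool and rounding (0.706% to 3.12% of all genes raised) and at the other thresholds. Without both replicate 2 libraries it was 2 (ODC1 and AMD1), with 3.70% of all genes raised. It was 3 (with SRM) when vehicle replicate 5 was also left out, an alternative chosen after seeing the data, in which 10 neighbours were raised and 1 was lowered, with 6.59% and 4.05% of all genes called. The labels do not say that a replicate number pairs a DHT culture with a vehicle culture. The deviations of same-numbered libraries correlated between -0.238 and 0.875, and 3 of 6 DHT libraries correlated best with their own number. These values do not settle whether the numbers pair the cultures. With the number as a replicate block, 3 members were raised (ODC1, AMD1 at 0.53, SRM at 0.52), 6 neighbours were raised and 1 was lowered, with 4.67% and 3.19% of all genes called. The neighbours raised numbered 7, with 1 lowered, without both replicate 2 libraries, when 3.70% of all genes were raised and 1.90% lowered. They numbered 2 with upper-quartile scaling (1.74% of all genes raised) or DESeq2 (3.12%), and 0 with no low-count filter (0.706%). With 1 library left out they numbered 0 to 3, with 1.15% to 2.62% of all genes raised. Signs turned only for members that did not pass: SMS to 0.01 without DHT replicate 5 and 0.04 without vehicle replicate 5, OAZ1 to 0.12 and OAZ2 to 0.04 without vehicle replicate 2, and SAT1 to 0.07 without vehicle replicate 5. With 1 library left out, the ranges were -0.09 to 0.04 for SMS, -0.38 to 0.12 for OAZ1, -0.36 to 0.04 for OAZ2, -0.18 to 0.07 for SAT1 and -0.40 to -0.10 for PAOX. Without both replicate 2 libraries and vehicle replicate 5 they turned for SMS (0.01), OAZ1 (0.06) and SAT1 (0.05). Causes were not tested. All alternatives kept SMOX out except the one with no low-count filter, where its log2 fold change was 0.82 (SE 0.65, adjusted p = 0.675 in edgeR). Depth limits SMOX and PAOX.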

Other observations

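SLC25A15, which carries ornithine across the mitochondrial membrane, was chosen after its values were seen. It averaged 60.9 ± 8.87 CPM in DHT libraries and 44.5 ± 5.54 CPM in vehicle libraries (SD, n = 6 each), with every DHT library above every vehicle library, as in 2.28% of all genes tested. Its log2 fold change was 0.45 (SE 0.12) and its adjusted p 0.0621 in edgeR, between 0.00306 and 0.210 over 22 fits without a replicate block, of which 5 passed. APIP, a dehydratase of methionine salvage, averaged 30.6 ± 8.97 CPM with DHT and 18.8 ± 6.08 CPM with vehicle (log2 fold change 0.71, SE 0.25, adjusted p = 0.194), and MTAP, the first enzyme of that route, averaged 26.5 ± 4.09 CPM with DHT and 20.2 ± 2.26 CPM with vehicle (0.39, SE 0.13, adjusted p = 0.167).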
